A study of Mus musculus with 137 samples.

Results

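Old mouse lungs were compared 28 days after bleomycin or saline, across all genes with enough reads. The 10 lungs, 5 per treatment, were all those whose title gives old age, day 28 and bleomycin or NaCl, among the 77 old and 60 young lungs of the series. Each was the lung of a male C57BL/6J mouse aged 21 months, sequenced as 1 poly-A library from 20 mg of flash-frozen whole tissue and deposited as read counts per gene. The treated group had received bleomycin sulphate at 0.63 mg/kg and the control group saline (NaCl), both instilled into the trachea. Further lungs are used only for comparison: 5 untreated old lungs taken at day 0, old lungs at day 21 (6 per treatment) and day 35 (4 with bleomycin and 6 with saline), and young lungs of 8 to 12 weeks at day 28 (5 per treatment, bleomycin at 0.7 mg/kg). Age and dose therefore changed together between old and young mice. The lungs were not sorted into cell types, and fewer cells of a type and less RNA per cell cannot be told apart in such data.

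Bleomycin breaks DNA strands, and in the lung it kills alveolar epithelial cells and sets off inflammation that gives way to fibrosis. In the fibrotic phase activated fibroblasts lay down collagen, monocytes enter the tissue and mature into lipid-handling macrophages, and alveolar type 2 cells pass through a keratin 8-rich transitional state on their way to flat type 1 cells. The same phase is known for loss of small capillaries and for slow removal of matrix by proteases of macrophages and fibroblasts.

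The 10 libraries held 14908959 to 28332323 counts, and those of the whole series 14908959 to 31019168. On the first principal component of 2000 genes (57.8% of the variance) the saline lungs lay from −38.7 to −28.4 and bleomycin lungs 1, 2, 3 and 5 from 33.1 to 44.7, whereas bleomycin lung 4 lay at 5.61. Lungs 4 and 5 of the bleomycin group carry library numbers that lie among those of the day 42 lungs. Over the genes that rose or fell more than 2-fold, lung 4 stood at 54.6% of the median rise and 53.3% of the median fall of the other 4 bleomycin lungs. Saline lung 5 stood apart on the second component (35.9, against −17.7 to 1.25 in the other saline lungs) and had the most Sftpc, the surfactant protein C gene, at 35808 CPM (counts-per-million units) against 13293 to 21268 in the other saline lungs. Several results in which either lung stood out are given with and without it, and others only with all lungs. Markers of lung tissue were present in all 10 libraries, with Sftpc, Ager of alveolar type 1 cells and Scgb1a1 of club cells each at no less than 925 CPM.

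**Figure D1:**
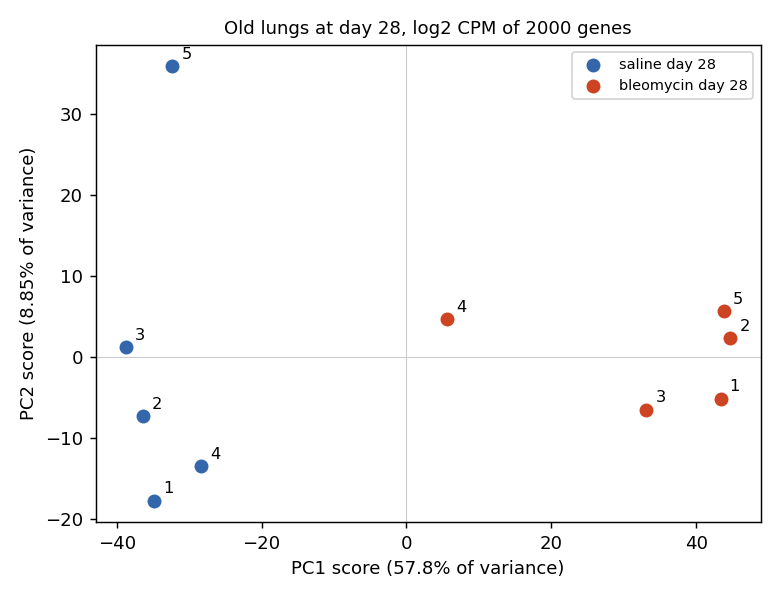
Scores of the 10 old day 28 lungs on principal components 1 (x axis, 57.8% of the variance) and 2 (y axis, 8.85%) of log2 CPM over 2000 genes, with the replicate number beside each point. Bleomycin lung 4 lies at 5.61 on the first component, between the saline lungs and the other 4 bleomycin lungs, and saline lung 5 at 35.9 on the second.

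Of 18396 genes tested, 7295 (39.7%) were called, meaning a Benjamini-Hochberg adjusted p under 0.05 in the edgeR quasi-likelihood test: 3674 were higher after bleomycin (20.0%) and 3621 lower (19.7%). More than 2-fold differences were called for 830 higher (4.51%) and 995 lower genes (5.41%), and the median log2 fold change over all genes was −0.01. For 1465 genes every bleomycin lung lay above every saline lung (7.96%), and for 1254 below (6.82%). These shares are the background for each gene group below. The spread behind the test came from all libraries of the series. With these 10 lungs fitted alone 4508 of 16162 genes were called (27.9%), and 4358 of the 7295 calls were kept in the same direction (59.7%). Without bleomycin lung 4, 7990 were called (43.4%) and 7001 of the 7295 were kept. Without saline lung 5 the share called was 39.2%, and without bleomycin lungs 4 and 5 39.1%.

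The 12 largest rises and 12 largest falls were taken among called genes whose groups did not overlap and whose log2 CPM averaged above 1, leaving out predicted genes and antigen-receptor segments. The largest rises were those of Chl1 and Grem1. Chl1, a neural cell adhesion gene, had 40.2, 37.9, 18.2, 6.2 and 38.5 CPM in bleomycin lungs 1 to 5 against 0.285, 0.443, 0.328, 2.53 and 0.403 in saline lungs 1 to 5, a log2 fold change of 5.16 ± 0.72 (± SE) with an adjusted p of 5.92e-09. Grem1, a secreted antagonist of bone morphogenetic proteins, had 65.3, 45.6, 40.2, 6.65 and 58.5 CPM against 0.742, 0.798, 0.602, 4.22 and 1.21, a difference of 4.86 ± 0.66 (adjusted p = 2.40e-09). In both genes bleomycin lung 4 was the lowest of its group. That the groups did not overlap was a condition of the choice. Without lung 4 the differences were 5.42 and 5.14. The next were Cemip, a hyaluronan-degrading protein gene (4.58 ± 0.69), Thbs4 and Thbs2 of the thrombospondins (4.19 ± 0.59 and 3.54 ± 0.49), Col24a1, a minor fibrillar collagen (3.94 ± 0.53), and Tnc, the injury matrix protein tenascin C (3.9 ± 0.45). After them came Ereg, an epidermal growth factor receptor ligand (3.78 ± 0.66), Megf11 (3.71 ± 0.56), the collagen prolyl hydroxylase subunit P4ha3 (3.63 ± 0.51) and Cilp, a cartilage matrix gene (3.51 ± 0.45). Cd5l, a macrophage-secreted protein gene, went the other way with respect to lung 4, which had 39.6 CPM against 7.09 to 10.8 in the other bleomycin lungs and 0.931 to 1.88 in saline lungs. Its difference was 3.45 ± 0.93 with all lungs and 2.65 without lung 4.

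The largest falls were those of Nppa and Fabp1. Nppa, the atrial natriuretic peptide gene, had 1.01, 0.329, 2.5, 0.775 and 3.57 CPM after bleomycin and 13, 125.4, 137.3, 37 and 34.4 after saline, a difference of −5.4 ± 1.05 (adjusted p = 1.43e-05). Fabp1, a fatty acid binding protein gene, had 0.596, 0.856, 0.333, 0.352 and 0.765 against 5.36, 3.9, 5.25, 5.01 and 17.7 CPM (−3.7 ± 0.46). The groups stayed apart in each gene, as the choice required. Saline lung 5 was far above the other saline lungs in Fabp1. Further falls were those of Cst8 (−3.66 ± 0.42), the gluconeogenesis enzyme Pck1 (−3.59 ± 0.99), Bex2 (−3.5 ± 0.38), myoglobin Mb (−3.11 ± 0.59), the keratin Krt79 of mouse alveolar macrophages (−3.1 ± 0.41) and the lactate transporter Slc5a12 (−3.07 ± 0.59). They were followed by the muscle creatine kinase Ckmt2 (−3.02 ± 0.57), Hes2 (−2.99 ± 0.41), the peroxisomal thiolase Acaa1b (−2.96 ± 0.34) and Ankrd63 (−2.87 ± 0.39). All 24 genes were called under each of the 16 alternatives run for this comparison. Being called was a condition of their choice, and 10 of these alternatives only left out 1 of the same lungs.

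Genes of the interstitial matrix had the highest median of the 56 lists. Of 32 tested, 29 rose and none fell, with a median log2 fold change of 1.68, and 21 did not overlap between groups. Col1a1, a chain of collagen I, had 2146, 1952, 1569, 515 and 1674 CPM after bleomycin and 319, 421, 333, 455 and 287 after saline, a 4.32-fold difference (2.11 ± 0.32, adjusted p = 3.78e-08). Fn1, fibronectin, had 5175, 3727, 3422, 897 and 3829 against 462, 294, 378, 606 and 289 CPM (8.4-fold, 3.07 ± 0.36), and Tnc had 545, 542, 349, 108.05 and 399 against 23.9, 17.7, 15.4, 45.2 and 28.7. In all 3 genes 4 bleomycin lungs stood several-fold above saline and lung 4 stood between. Elastin (Eln) differed by 1.91 ± 0.30, Col3a1 by 2.02 ± 0.24 and Sparc, a collagen-binding matricellular protein, by 1.39 ± 0.16. Cthrc1, a marker of the most collagen-rich fibroblasts in injured lung, had 18.6, 18.8, 12.8, 7.43 and 18.5 CPM against 6.33, 5.01, 6.4, 6.33 and 12.5 and its groups overlapped in bleomycin lung 4 and saline lung 5 (1.06 ± 0.29, adjusted p = 0.00179). Periostin (Postn), Mfap4 and Fbln1 were not called: Postn had 301 to 402 CPM after bleomycin and 254 to 354 after saline (0.15 ± 0.10). Without lung 4, 30 of 32 rose with a median of 1.86.

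**Figure D2:**
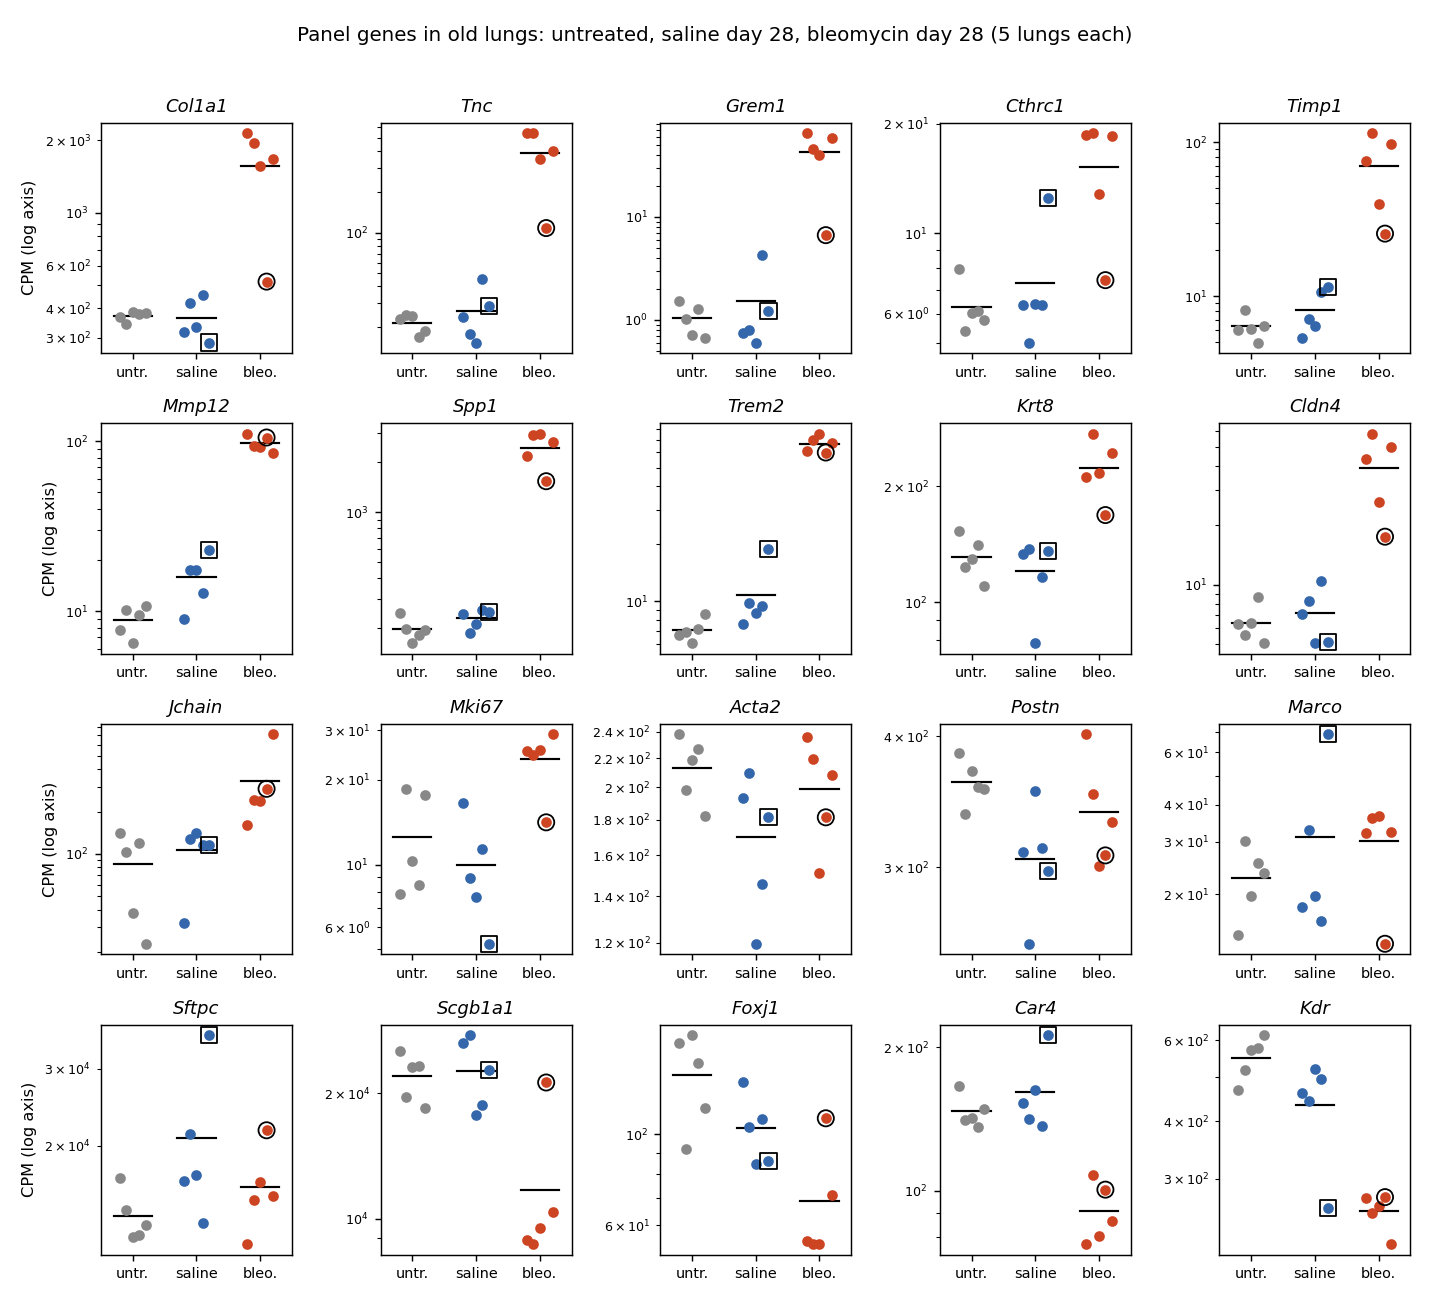
CPM (log axis) of 20 genes in each untreated, saline day 28 and bleomycin day 28 old lung, with 5 lungs a group and a line at the group mean; a circle marks bleomycin lung 4 and a square saline lung 5. In Col1a1 lung 4 has 515 CPM against 1569 to 2146 in the other bleomycin lungs, whereas in Mmp12 it lies among them and in Trem2 just below them.

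Enzymes that modify and cross-link collagen rose with it: 16 of 24 were higher and 1 lower (median 0.57). P4ha3 had 24.1, 21.8, 17.4, 3.56 and 23.3 CPM against 0.842 to 1.95 in saline lungs. Loxl2, a lysyl oxidase that cross-links collagen, had 90.6, 75.1, 62.3, 27.2 and 74.3 against 15.1 to 25.3 CPM (1.77 ± 0.26), and Lox itself differed by 1.66 ± 0.28 with overlap at lung 4 (69.7 CPM against 51 to 74.9). The procollagen peptidase Adamts2 differed by 1.62 ± 0.21 and the lysyl hydroxylase Plod1 by 0.78 ± 0.11. The 1 gene that fell was Pcolce2, a procollagen peptidase enhancer (−1.43 ± 0.23). The enzymes P4ha1, P4ha2 and Plod2 were not called, at −0.12, 0.27 and 0.22.

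In the basement membrane, the sheet beneath epithelium and endothelium, 20 of 21 genes rose (median 0.91). With saline lung 5 included, saline lungs were lower than untreated ones in 7 of the 21. Against untreated lungs 16 rose and 1 fell after bleomycin (median 0.52). Saline lung 5 had the lowest list score (6.54), and saline lung 4 (7.26) lay within the untreated range of 7.16 to 7.36. Without saline lung 5, 18 rose and 1 fell against saline (median 0.78). Lama1, a laminin chain scarce in the healthy adult lung, had 90.2, 78.9, 58, 21.3 and 56.2 CPM against 9.47, 7.36, 7.44, 12.2 and 4.97 (2.87 ± 0.35, adjusted p = 7.94e-11). The laminin chain Lamb3 differed by 1.07 ± 0.13 and the collagen IV chain Col4a1 by 1.39 ± 0.18. In each of these 3 genes every bleomycin lung lay above every saline lung. Col4a6 was not called (−0.31).

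Matrix metalloproteinases, which cleave collagen, elastin and other matrix proteins, split in 2 directions. Of 13 tested 8 were higher and 3 lower (median 0.72). Mmp12, the macrophage elastase, had 110.5, 93.6, 92.5, 105.02 and 85.4 CPM against 8.96, 17.4, 17.4, 12.7 and 22.8 (2.62 ± 0.47, adjusted p = 2.72e-06), with lung 4 level with the others. Mmp2, the gelatinase of fibroblasts, had 692, 611, 522, 424 and 620.3 against 126.5, 141.04, 125.1, 130.6 and 101.5 (2.2 ± 0.19), and its membrane-bound activator Mmp14 had 331, 319, 259, 134.1 and 317 against 68, 76.9, 74.5, 77.4 and 90.5 (1.81 ± 0.21). Mmp19 differed by 2.11 ± 0.25 and the collagenase Mmp13 by 1.59 ± 0.41. In Mmp12, Mmp2 and Mmp14 every bleomycin lung lay above every saline lung. Mmp10, stromelysin 2, was scarce, with 74, 53, 53, 11 and 66 reads in bleomycin lungs and 0, 0, 2, 1 and 3 in saline lungs (5.29 ± 0.87, a fitted value that rests on few saline reads). Among the lower genes, Mmp9, stored in neutrophils, had 12.9, 14.3, 26, 35.5 and 12.4 against 61.6, 48.4, 70.3, 57.1 and 76.7 CPM (−1.62 ± 0.35). Mmp15 and Mmp28, of epithelium, differed by −0.56 ± 0.16 and −0.74 ± 0.14, and Mmp3 and Mmp8 were not called.

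Several of the inducible metalloproteinase genes lie in 1 cluster on chromosome 9 and are known to carry a binding site for the transcription factor AP-1 close to their start. The 250 bases before the start of 3 of the genes that rose are printed from the RefSeq promoter table (GRCm38.p6, all on the plus strand, 5′ to 3′, Mmp12 from the second of its 2 listed starts), to show where the letters TGANTCA stand, with the match in capitals:
Mmp10, chr9:7502092-7502341: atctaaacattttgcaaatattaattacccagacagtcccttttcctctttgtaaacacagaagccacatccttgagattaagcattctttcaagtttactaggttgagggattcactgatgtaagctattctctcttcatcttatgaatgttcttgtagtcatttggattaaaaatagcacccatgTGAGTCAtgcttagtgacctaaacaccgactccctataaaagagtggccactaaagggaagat
Mmp12, chr9:7347124-7347373: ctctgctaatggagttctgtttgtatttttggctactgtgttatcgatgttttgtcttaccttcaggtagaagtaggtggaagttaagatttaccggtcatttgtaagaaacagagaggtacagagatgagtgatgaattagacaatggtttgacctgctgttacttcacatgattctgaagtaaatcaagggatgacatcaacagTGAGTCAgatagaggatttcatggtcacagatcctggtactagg
Mmp13, chr9:7272264-7272513: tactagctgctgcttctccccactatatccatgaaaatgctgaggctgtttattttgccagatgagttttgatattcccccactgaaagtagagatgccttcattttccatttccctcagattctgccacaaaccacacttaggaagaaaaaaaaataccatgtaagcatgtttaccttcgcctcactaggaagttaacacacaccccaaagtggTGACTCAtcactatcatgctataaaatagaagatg
The match begins 63, 44 and 35 bases before the start. Searched on both strands (the motif is its own reverse complement), TGANTCA was found in 4 of the 12 listed promoters of metalloproteinase genes. They belong to 4 of the 10 such genes matched to the table, and the fourth was Mmp3, which was not called. The 3 printed starts were taken from those that hold a match. The first Mmp12 start held none, and neither did Mmp11, Mmp14 and Mmp23, which rose. In 2217 of all 32851 promoters (6.75%) the same window holds TGANTCA. This describes letters in the window and not binding, and the factor was not measured.

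Lysosomal and cell-surface proteases rose more uniformly: of 18 cathepsin and other protease genes 15 were higher and 1 lower (median 1.17). Ctss, the cathepsin of antigen-presenting cells, had 1110.4, 1305, 1048, 1023 and 1295 CPM against 233, 265, 219, 199.5 and 369 (2.17 ± 0.22). Ctsb had 1439.8 to 1685 against 529 to 713 (1.43 ± 0.15), and Lgmn, legumain, 344 to 492 against 121.8 to 183 (1.6 ± 0.15). Unlike the collagen genes, these 3 had lung 4 close to the other bleomycin lungs. That does not hold for the list as a whole. Its score (mean log2 CPM of the members) was 6.62 in the lowest bleomycin lung, with a median of 7.35 and a highest value of 7.39. In saline lungs the score was 5.83 to 6.08. The proteases Adamts4 and Adamts12 differed by 3.28 ± 0.46 and 3.25 ± 0.52, and the related Adamts5 was the lower gene (−0.44 ± 0.14). Among 14 protease inhibitors, 9 were higher and 2 lower. Timp1, an inducible metalloproteinase inhibitor, had 75.2, 114.5, 39.7, 25.5 and 97.5 CPM against 5.36, 7.09, 6.34, 10.6 and 11.4 (3.12 ± 0.44, adjusted p = 8.27e-09). Serpina3n differed by 1.92 ± 0.28 and Serpine2 by 1.51 ± 0.21, while Timp4 and Reck fell by 0.90 and 0.67 on the log2 scale.

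In the transforming growth factor beta pathway, the main inducer of fibroblast collagen, 16 of 23 genes rose and 3 fell (median 0.75). Among ligands Tgfb1 rose little, with 104.5 to 130.1 CPM against 82.9 to 114.7 and overlapping groups (0.29 ± 0.08), Tgfb3 rose by 1.0 ± 0.14, and Inhba, the activin A subunit, had 12.4, 13.5, 6.06, 2.75 and 13.3 against 1.2, 1.64, 1.04, 2.41 and 1.61 (2.6 ± 0.49). The receptors Tgfbr1 (0.83 ± 0.09) and Tgfbr2 (0.88 ± 0.10), the latent-ligand binder Ltbp2 (1.98 ± 0.27) and the activating integrin chain Itgav (0.89 ± 0.10) rose with no overlap between groups. Lower were the inhibitor Smad7 (−0.55 ± 0.10), the co-receptor Tgfbr3 (−0.59 ± 0.12) and Ltbp4 (−0.68 ± 0.12).

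Bone morphogenetic protein genes moved both ways, 5 higher and 8 lower of 21 (4 and 5 of 20 with the 10 lungs alone). The secreted antagonists or ligand binders Grem1, Fst (2.14 ± 0.45), Fstl1 (1.63 ± 0.23) and Fstl3 (0.81 ± 0.16) were higher. The ligand Bmp6 had 52, 49, 60.9, 120.6 and 51.3 CPM against 204, 152.7, 239, 189 and 163 (−1.5 ± 0.22), and the endothelial receptors Eng (−1.04 ± 0.15), Acvrl1 (−0.64 ± 0.12) and Bmpr2 (−0.40 ± 0.13) and the target Id1 (−0.37 ± 0.15) were lower too. The ligand Bmp4 was not called (0.03).

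WNT genes gave 11 higher and 8 lower of 24. The inhibitor Dkk2 had 18.8, 16.3, 12.3, 2.39 and 17.9 CPM against 0.742, 0.753, 0.547, 1.27 and 3.49 (3.35 ± 0.56), the secreted binder Sfrp1 had 46.3 to 171 against 21.2 to 32.8 (2.29 ± 0.31), and the ligands Wnt7b and Wnt5a differed by 1.46 ± 0.19 and 1.09 ± 0.17. Ccn4, a matricellular WNT target, differed by 1.85 ± 0.30. Lower were Wnt2 (−0.94 ± 0.18), a ligand of alveolar fibroblasts, Wnt2b (−1.12 ± 0.21) and the target Axin2 (−0.32 ± 0.11). Of 16 insulin-like and platelet-derived growth factor genes 5 rose and 5 fell. Igf1, made by macrophages and fibroblasts, had 153.8, 139.9, 136.7, 61.1 and 132.2 CPM against 16.8, 17.9, 17.1, 17.9 and 25.5 (6.56-fold, 2.71 ± 0.31), and Pdgfc differed by 1.95 ± 0.23, whereas Igfbp3 differed by −1.35 ± 0.23. Among 17 epithelial growth factor genes 7 were higher and 5 lower, or 4 and 2 with the 10 lungs alone. Ereg had 1.41 to 10.3 CPM against 0.133 to 0.739, the related ligand Areg differed by 1.54 ± 0.29, and the receptor Fgfr2 by −0.54 ± 0.12. With saline lung 5 included, saline lungs were lower than untreated ones in 6 of these 17 genes and higher in 1. Against untreated lungs bleomycin gave 3 higher and 6 lower (median −0.07, against 0.19 with saline as the control).

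Few smooth muscle and myofibroblast genes were called. Of 12, 2 were higher (Actn1 and Tpm1) and 1 lower (Cnn1), with a median of 0.02. Acta2, smooth muscle actin, had 236, 219.8, 151.02, 181 and 208 CPM after bleomycin and 193, 210.03, 119.7, 145.6 and 182 after saline, overlapping throughout (0.23 ± 0.19, adjusted p = 0.351). Genes of alveolar fibroblasts gave 3 higher and 7 lower of 18. Inmt, a methyltransferase of resident lung fibroblasts, had 433, 490.1, 577, 1064 and 447 CPM against 1840.4, 3275, 1620.3, 1668 and 1674 (−1.74 ± 0.25), and the amino acid transporter Slc7a10 had 4.41, 5.27, 7.06, 15.4 and 2.24 against 52.4, 50.9, 54.4, 51.2 and 47.4 (7.22-fold lower, −2.85 ± 0.42). Tcf21, a transcription factor of these cells, differed by −0.54 ± 0.16, and Lpl, lipoprotein lipase, rose (1.07 ± 0.19). Adventitial genes gave 4 higher and 2 lower of 12, with Il33 and Col14a1 up (0.80 ± 0.15 and 0.73 ± 0.12) and Pi16, a marker of adventitial progenitors, down (−0.80 ± 0.21). Pericyte genes gave 4 higher and 5 lower of 12 (2 and 2 with the 10 lungs alone), and of 8 mesothelial genes 1 rose, Msln (0.89 ± 0.26).

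Genes of monocyte-derived macrophages stood high in all 5 bleomycin lungs. Of 20 tested 16 were higher and none lower (median 1.42), and 14 did not overlap. The list score, the mean log2 CPM of the members, was 6.78 to 6.98 in bleomycin and 5.2 to 5.81 in saline lungs. Spp1, osteopontin, had 2197, 2927, 2981, 1539 and 2657 CPM against 242, 187, 211, 255 and 249.9 (10.7-fold, 3.42 ± 0.38, adjusted p = 2.71e-12). Trem2, a lipid receptor, had 60.7, 69.7, 75.2, 60 and 67.6 against 7.65, 9.79, 8.7, 9.41 and 18.7 (2.63 ± 0.26), and Gpnmb, a lysosomal glycoprotein, 239.5, 308, 403, 331 and 261 against 41.5, 35.8, 37.4, 33.8 and 79.6 (2.76 ± 0.31). Lung 4 was the lowest bleomycin lung in Spp1, the lowest in Trem2 by a small margin and the second highest in Gpnmb, and no groups overlapped. Arg1, arginase, differed by 2.65 ± 0.69 and Apoe, a lipid carrier, by 1.46 ± 0.15. The monocyte receptors Ccr2 and Cx3cr1 were not called (−0.31 and 0.18).

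**Figure D3:**
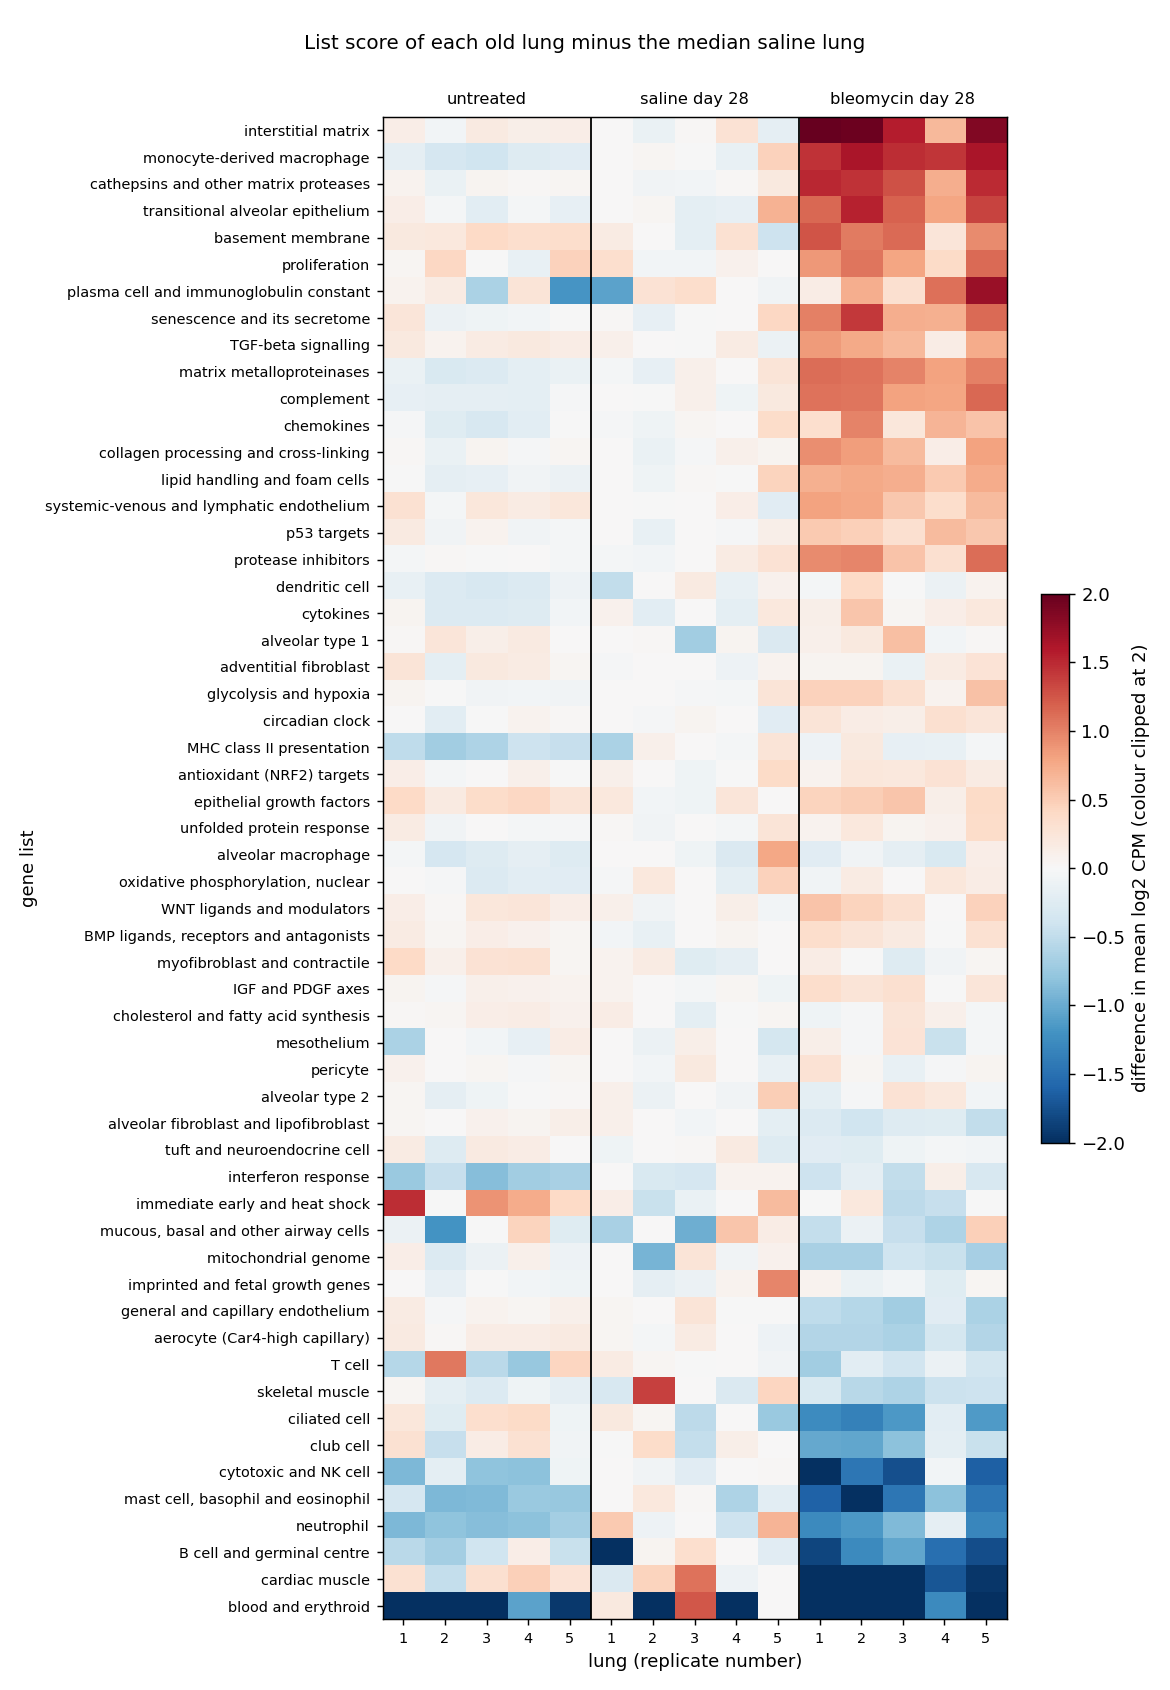
List score (mean log2 CPM of the members) of each untreated, saline and bleomycin old lung minus the median saline lung, with 56 lists in rows, lungs in columns and the colour scale clipped at 2. The monocyte-derived macrophage row is high in all 5 bleomycin lungs, the interstitial matrix row is weakest in bleomycin lung 4, and the blood row varies among the saline lungs.

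Alveolar macrophage genes split, 4 higher and 4 lower of 14, a median of 0.11 and a mean of −0.25. Saline lung 5 had the highest list score of its group (5.94 against 4.88 to 5.17), and without it 5 were higher and 4 lower, with a median of 0.33. Against untreated lungs 8 were higher and 4 lower (median 0.55). Atp6v0d2, a lysosomal proton pump subunit, had 127.9, 149.4, 159.6, 119.3 and 146.9 CPM against 47.2, 39.7, 39.4, 36.9 and 76.4 (1.56 ± 0.19), and the integrin Itgax differed by 1.27 ± 0.16. Krt79 had 2.14, 3.23, 4.17, 4.75 and 2.14 against 32, 20.9, 25.7, 24.1 and 40.4 (−3.1 ± 0.41) and the lipid droplet gene Cidec 1.65 to 4.18 against 14.9 to 21.1 (−2.57 ± 0.40). Marco, a scavenger receptor, was not called, with 32.2, 36.1, 36.7, 13.7 and 32.3 CPM against 18.2, 32.9, 19.7, 16.2 and 68.8. Lipid handling genes gave 11 higher and 1 lower of 17 (median 0.54). Msr1, another scavenger receptor, had 49.1, 57.9, 50.7, 44.5 and 55.2 CPM against 7.53, 7.31, 6.62, 7.36 and 7.32 (7.12-fold, 2.83 ± 0.35). The cholesterol exporter Abca1 and the lysosomal lipase Lipa differed by 1.54 ± 0.17 and 1.18 ± 0.13.

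Complement genes rose in 12 of 16 and fell in none. The 3 C1q chains, made by macrophages, were among them: C1qb had 315, 364, 255, 265 and 361 CPM against 63.8, 79.2, 60.5, 57.5 and 99.3 (2.12 ± 0.23). C3ar1, a complement receptor, differed by 2.12 ± 0.24 and Cfb by 1.38 ± 0.29. Chemokine genes gave 11 higher and 2 lower of 26. The monocyte attractant Ccl2 had 8.34, 23.9, 7.89, 7.92 and 12.2 CPM against 2.74, 1.68, 3.39, 2.29 and 3.76 (2.12 ± 0.36), and Cxcl9, an interferon gamma-inducible T cell attractant, 10.1, 21.9, 7.28, 14.8 and 12.1 against 2.45, 3.28, 1.75, 2.11 and 2.08 (2.49 ± 0.67). Cxcl16 (1.03 ± 0.11) and Cxcl12 (0.94 ± 0.18) rose as well, and the neutrophil attractant Cxcl5 fell (−1.84 ± 0.51). Among cytokines 7 of 22 were higher and 4 lower. Il11, a fibroblast cytokine, had 4.35, 7.11, 2.78, 1.44 and 3.26 CPM against 1.2, 1.02, 1.42, 0.844 and 1.34 (1.68 ± 0.33), Lif differed by 1.37 ± 0.25 and Il34 by 0.61 ± 0.10. Il1b (−0.79 ± 0.32) and Il16 (−0.64 ± 0.12) were lower, and Il6 and Tnf were not called (0.94 and 0.32).

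Granulocyte genes were lower after bleomycin than after saline. Of 14 neutrophil genes 9 fell and none rose (median −1.48). Csf3r, the receptor for granulocyte colony-stimulating factor, had 45.3, 48.6, 67.4, 106.3 and 35.8 CPM against 158, 150.8, 216, 171 and 194 (−1.55 ± 0.36, adjusted p = 2.39e-04), and S100a8, a calprotectin subunit, 25.1, 37.4, 50, 101.5 and 26.3 against 157, 106.3, 147.5, 82.6 and 229 (−1.58 ± 0.45). Lung 4 was the highest bleomycin lung in both. The saline lungs themselves stood above the untreated ones: the neutrophil score was 2.58 to 2.8 in untreated, 3.08 to 4.17 in saline and 2.18 to 3.3 in bleomycin lungs. With untreated lungs as the control 1 neutrophil gene was called higher and 1 lower, beside 22.2% and 24.6% of all genes, and the median was 0.00. Mast cell, basophil and eosinophil genes gave 8 lower and none higher of 12 (4 of 9 with the 10 lungs alone). Ms4a2, an IgE receptor chain, had 0.179, 0.0658, 0.278, 0.352 and 0.102 CPM against 2.51, 2.44, 2.02, 1.39 and 0.94 (−3.14 ± 0.57).

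B cell genes fell in 11 of 15 (median −1.67). Pax5, the B cell transcription factor, had 6.55, 5.66, 10.3, 7.18 and 4.08 CPM against 3.25, 38.8, 56.2, 37.3 and 30.4, so that the groups overlapped only through saline lung 1, the lowest of all 10 (−2.3 ± 0.47, adjusted p = 3.06e-05). S1pr2 was the 1 higher gene (0.76 ± 0.09). Plasma cell genes rose in 7 of 20, and in 3 of 20 without bleomycin lungs 4 and 5, beside 19.8% of all genes in that fit. Jchain, which joins IgA and IgM units, had 161, 242, 237, 291 and 712 CPM against 32.2, 126.8, 140.96, 116.3 and 114.96 (1.63 ± 0.57, adjusted p = 0.0163). Igha, the IgA constant region, had 574, 817, 967, 463 and 1419 against 30.4, 200.2, 283, 277 and 162 (2.15 ± 0.70), and Igkc 732, 1086, 981, 1753 and 4495 against 175, 616, 676, 539 and 779 (1.7 ± 0.56). Lung 5 was highest of the bleomycin lungs in all 3 genes and saline lung 1 lowest of the saline lungs. Leaving out both bleomycin lungs took the Jchain difference to 1.01 (adjusted p = 0.201) and that of Igkc to 0.74 (adjusted p = 0.341). Reads of immunoglobulin genes may be split among similar copies, so their levels are uncertain.

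T cell genes gave 2 higher and 6 lower of 22 (median −0.59), but 1 higher and 13 lower of 21 when the 10 lungs were fitted alone. Gata3 had 7.38, 9.22, 8.73, 17.6 and 7.9 CPM against 22.6, 26, 26, 21.5 and 24.8 (−1.23 ± 0.21), and Foxp3, the factor of regulatory T cells, rose (1.41 to 2.5 against 0.656 to 1.02, 1.25 ± 0.38). In cytotoxic and natural killer cells 8 of 14 genes fell and none rose. Gzma, granzyme A, had 1.31, 2.11, 1.28, 18.2 and 1.89 CPM against 21.2, 19.4, 8.92, 15.6 and 30.1 (−1.87 ± 0.50). Lung 4 lay among the saline lungs, and without it the difference was −3.53 and 11 genes of the list fell. Antigen presentation by MHC class II gave 3 higher and 2 lower of 9, with the invariant chain Cd74 at 2074 to 2857 CPM against 1380.1 to 2732 (0.40 ± 0.15) and H2-Oa and H2-Ob, expressed chiefly in B cells, lower (−1.02 ± 0.32 and −1.63 ± 0.35). With the 10 lungs alone none were higher. With saline lung 5 included, saline lungs were themselves higher than untreated ones in 6 of the 9. Over all genes most such calls rested on that lung. Against untreated lungs bleomycin gave 6 higher and 1 lower (median 0.90, against 0.27 with saline as the control). Dendritic cell genes gave 5 higher and 3 lower of 14, led by Fscn1 of migrating cells (1.63 ± 0.19), with the plasmacytoid marker Siglech lower (−1.39 ± 0.33).

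Interferon-stimulated genes were called lower in 2 of 22 and higher in none (median −0.23). The 2 were Gbp4 (−0.86 ± 0.35) and Irf1 (−0.33 ± 0.13). Without bleomycin lung 4, 6 were lower. The score was 4.8 to 5.19 in untreated, 5.31 to 5.72 in saline and 5.16 to 5.77 in bleomycin lungs. Against untreated lungs 10 members were called higher after bleomycin and none lower.

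Few alveolar type 2 genes were called: 2 of 15 were higher and 1 lower (median −0.06). Sftpc had 11901, 14994, 16529, 21691 and 15364 CPM against 16585, 21268, 17113, 13293 and 35808 and was not called (−0.37 ± 0.20, adjusted p = 0.126). Muc1 (0.65 ± 0.12) and the surfactant collectin Sftpd (0.52 ± 0.14) rose, and Lyz1, lysozyme, fell (−1.09 ± 0.31). Type 1 genes gave 6 higher and 2 lower of 14 (median 0.33), or 4 and none with the groups fitted alone. With saline lung 5 included, saline lungs were lower than untreated ones in 4 of the 14. Against untreated lungs bleomycin gave 5 higher and 4 lower (median 0.05). Cldn18, a tight junction gene, had 815, 922, 1135, 629 and 802 CPM against 478, 429.95, 297, 504 and 439 after saline (1.0 ± 0.13). The surface glycoprotein Pdpn, shared with lymphatic vessels, differed from saline by 1.01 ± 0.16. Ager rose by 0.40 ± 0.16 (adjusted p = 0.0349) but was called in 9 of 16 alternatives.

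Of the 3 alveolar epithelial lists the transitional one had the highest median. Of 20, 17 rose and 1 fell (Nupr1, −0.39 ± 0.12), with a median of 1.0. Krt8, the keratin that names this state, had 212, 273, 216, 168 and 244 CPM against 133.3, 137.7, 78.3, 116.4 and 135.5 (0.89 ± 0.14, adjusted p = 1.18e-07). Cldn4, a tight junction gene, had 43.5, 58.1, 26.3, 17.5 and 50.1 against 7.08, 8.29, 5.09, 10.4 and 5.1 (2.43 ± 0.42), and Sprr1a, an epithelial stress protein gene, 5.42, 10.1, 7.06, 3.1 and 6.88 against 0.571, 0.354, 0.656, 0.181 and 1.34 (3.41 ± 0.46). The groups did not overlap in any of the 3. Lgals3 and Clu, which macrophages and other cells also express, differed by 1.18 ± 0.18 and 0.93 ± 0.14.

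Targets of the DNA damage factor p53 rose in 11 of 17 and fell in 1 (Sesn1). Ccng1, cyclin G1, had 404, 406, 423, 432 and 437 CPM against 233, 197, 195, 211 and 209 (1.01 ± 0.11, adjusted p = 1.50e-12), and the cell cycle inhibitor Cdkn1a 571, 596, 447, 533 and 621 against 293, 246, 275, 298 and 359 (0.91 ± 0.15). Lung 4 was not low in either. Eda2r, a p53-induced receptor, differed by 0.96 ± 0.19 and Zmat3 by 0.92 ± 0.12. Of 16 senescence genes, which share Timp1, Mmp12 and Ccl2 with other lists, 10 rose. Cdkn2a, the p16 locus, had 5.66, 5.0, 3.33, 4.44 and 5.15 CPM against 1.37, 1.55, 1.42, 1.51 and 2.42 (1.52 ± 0.33, adjusted p = 1.06e-04), with no overlap. Cell cycle genes rose in 13 of 22 and fell in 1 (median 0.88). Mki67 had 25.3, 24.5, 25.4, 14.1 and 29 CPM against 16.5, 9.0, 7.66, 11.3 and 5.24, overlapping at bleomycin lung 4 and saline lung 1 (1.24 ± 0.42), and Cdk1 had 2.96 to 5.76 against 1.15 to 2.28 (1.29 ± 0.37).

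In the airways, genes of ciliated cells fell in 15 of 16, with a median of −0.82, yet the groups overlapped in every one. Ccdc153, a cilium gene, had 32.8, 32.1, 32.4, 98.6 and 46 CPM against 110.4, 132.2, 71.3, 85.7 and 89.4 (−1.01 ± 0.25, adjusted p = 4.97e-04). Tekt1, a protein of the ciliary microtubules, had 6.19, 7.44, 7.17, 20.7 and 8.97 against 26.2, 22.1, 16.4, 18.5 and 21.5 (−1.03 ± 0.24). Lung 4 lay among the saline lungs in both, and the ciliated score was 4.94 in lung 4 against 3.8 to 4.02 in the other bleomycin lungs and 4.41 to 5.35 in saline lungs. Without lung 4 the median was −1.1. Foxj1, the factor that drives ciliated cell fate, differed by −0.59 ± 0.23 (adjusted p = 0.0314) and was called in 9 of 16 alternatives. With the 10 lungs alone 8 of 16 genes fell.

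Ciliary genes are known targets of the RFX transcription factors, which bind inverted repeats of a short site. The promoters of the 2 genes above are printed with the letters GTTGCC, or GGCAAC of the other strand, in capitals, because these members fell together and 1 holds the short site on both strands close to its start (RefSeq, GRCm38.p6, 250 bases before the start, 5′ to 3′, Tekt1 on the minus strand from the first of 2 listed starts and Ccdc153 on the plus strand):
Tekt1, chr11:72361883-72362132: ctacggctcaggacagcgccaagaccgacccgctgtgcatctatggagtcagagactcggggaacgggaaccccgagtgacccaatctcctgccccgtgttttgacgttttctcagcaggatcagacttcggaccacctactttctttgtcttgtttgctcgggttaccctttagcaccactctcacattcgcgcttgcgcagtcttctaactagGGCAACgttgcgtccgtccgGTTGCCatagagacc
Ccdc153, chr9:44240427-44240676: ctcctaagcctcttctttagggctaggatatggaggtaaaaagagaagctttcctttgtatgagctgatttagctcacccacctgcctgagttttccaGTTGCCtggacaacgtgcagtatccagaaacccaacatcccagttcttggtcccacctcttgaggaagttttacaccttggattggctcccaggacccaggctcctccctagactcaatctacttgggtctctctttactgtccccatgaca
In Tekt1 the matches begin 35 and 15 bases before the start, and in Ccdc153 the match begins 152 bases before it. Searched on both strands, the short site was found in 6 of the 16 listed promoters of the 13 ciliated genes matched to the table. These belong to 6 genes, and over all promoters 3425 of 32851 (10.4%) held the site. The second Tekt1 start held none. No listed promoter of Ccdc39, Cfap126, Dnah5, Dnah9, Dnah12, Spag6l or Tmem212, which fell, held the site. A match is no evidence of binding, and 1 of the 6 genes, Mcidas, was not called (−0.05).

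Club cell genes, of the secretory airway cells, gave 1 higher and 5 lower of 12 (median −0.94). Scgb1a1, the club cell secretory protein, had 8919, 8683, 9525, 21203 and 10363 CPM against 26299, 27555, 17759.5, 18729 and 22735 (−0.95 ± 0.23, adjusted p = 3.87e-04), with lung 4 again among the saline lungs. Without it the difference was −1.27. Scgb3a2 (−1.29 ± 0.33) and the cytochrome Cyp2f2 (−0.98 ± 0.26) fell, and Upk3a, a urothelial gene of a club cell subset, rose (1.43 ± 0.48). Other airway genes gave 2 higher and 4 lower of 16, with the basal keratins Krt14 (1.92 ± 0.60) and Krt5 (2.37 ± 0.92) higher and Bpifa1 (−2.51 ± 0.93) and Tff2 (−2.49 ± 0.66) lower. Krt5 had 0.50 to 3.72 CPM against 0.171 to 1.14 and was called in 8 of 16 alternatives.

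Most capillary endothelial genes were lower. Of 20 general and capillary genes 17 fell and none rose (median −0.51), or 12 with the 10 lungs alone. Plvap, a protein of endothelial openings, had 198, 226, 170.4, 343 and 174 CPM against 372, 469.9, 570.2, 403 and 776 (−1.22 ± 0.16). Kdr, a vascular endothelial growth factor receptor, had 273, 253, 262, 274 and 216 against 461, 442, 519.9, 494 and 259.9 (−0.77 ± 0.15), with saline lung 5 among the bleomycin lungs. Hpgd, a prostaglandin-degrading enzyme, differed by −1.29 ± 0.21. Genes of aerocytes, the large gas-exchange capillary cells, gave 1 higher and 8 lower of 11. Car4, carbonic anhydrase 4, had 77.2, 108.03, 80.5, 100.5 and 86.6 CPM against 152.5, 141.2, 163, 136.9 and 212 (1.78-fold lower, −0.83 ± 0.14, adjusted p = 3.56e-07), and the endothelin receptor Ednrb had 19.3, 18.8, 23.5, 42.4 and 22.1 against 81.9, 62.2, 86.8, 84.7 and 44.8 (−1.5 ± 0.25).

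Genes of systemic-venous and lymphatic vessels went the other way, with 10 higher and 1 lower of 17 (median 0.51). Col15a1, which marks bronchial vessels that spread in fibrotic lung, had 132.98, 118.3, 68, 32.4 and 96.6 CPM against 24.1, 19.9, 25.8, 22.7 and 20.1 (1.99 ± 0.31), though activated fibroblasts also make it and the list of matrix genes holds it too. Ackr1, a chemokine-binding protein of venules, had 2.08 to 5.53 against 0.399 to 0.873 (2.38 ± 0.45), and Prox1, the lymphatic transcription factor, 16, 14.3, 16.1, 7.18 and 15.6 against 6.9, 4.83, 6.29, 4.64 and 1.81 (1.48 ± 0.23). Lyve1, another lymphatic marker, was not called (−0.54).

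**Figure D4:**
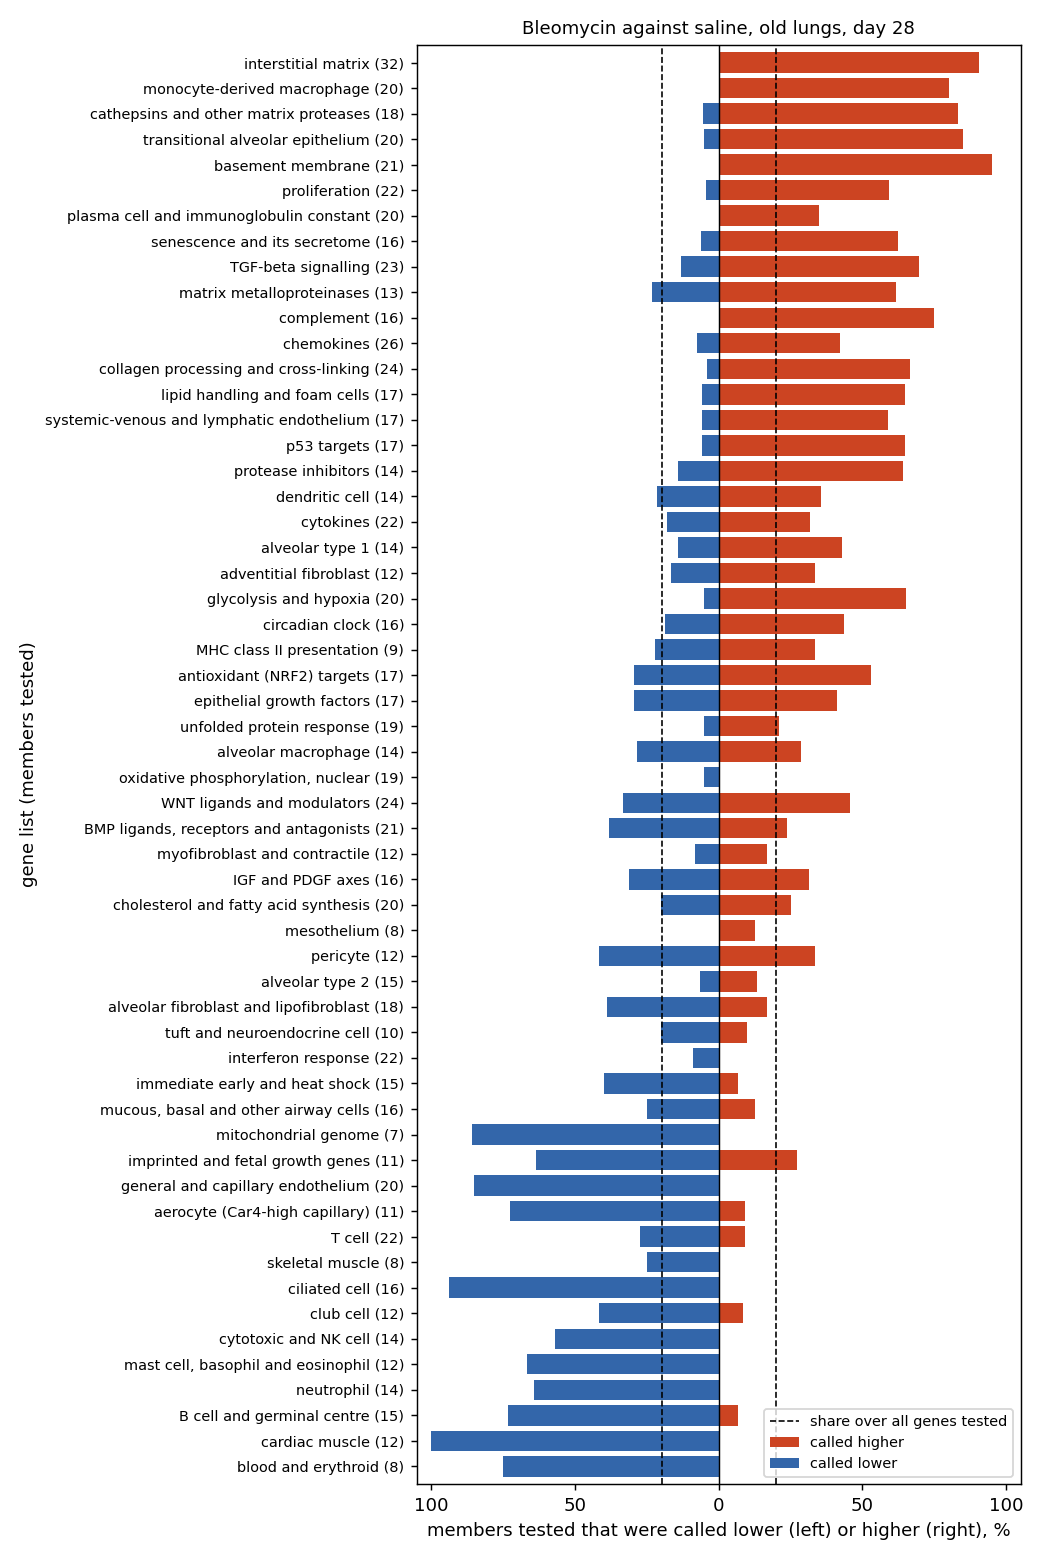
Share of tested members called higher (right) or lower (left) in each of 56 lists, bleomycin against saline, with the number tested after each name and dashed lines at the shares over all genes (20.0% higher, 19.7% lower). Interstitial matrix, monocyte-derived macrophage and transitional lists lie to the right, and cardiac, ciliated and capillary lists to the left.

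Heart muscle genes fell in all 12 members tested, and in all of them the groups did not overlap (median −2.41). Cardiac muscle in mice also lines the large pulmonary veins. Myl4, an atrial myosin light chain, had 9.53, 9.41, 12.1, 30.9 and 16.4 CPM against 55, 100.7, 135.8, 57.7 and 95.4 (−2.48 ± 0.47, adjusted p = 9.72e-06), and Tnni3, cardiac troponin I, 9.95, 8.89, 8.73, 24.5 and 15.2 against 40.6, 68.6, 81.5, 35.6 and 67.9 (−2.11 ± 0.36). The cardiac score was 4.73 to 5.68 in untreated, 4.91 to 6.29 in saline and 2.04 to 3.5 in bleomycin lungs, so the bleomycin lungs stood apart from both control groups. Of 8 skeletal muscle genes 2 fell, Ckm (−2.69 ± 0.58) and Mylpf (−0.83 ± 0.32). Red blood cell genes fell in 6 of 8 (median −2.69), with the haemoglobin chain Hba-a1 at 16.1, 30.9, 4.67, 51.7 and 17.8 CPM against 96.6, 10.4, 472, 27.1 and 214 (−2.74 ± 0.92). Saline lungs 3 and 5 held most of it, the blood score was 0.91 to 3.2 in untreated lungs, and against untreated lungs no blood gene was called in either direction. The blood left in a lung and the part of the lung taken are not in the labels, and their part in the lower neutrophil, lymphocyte and heart muscle genes was not tested.

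Lists of energy metabolism and stress had medians nearer 0. Glycolysis and hypoxia genes gave 13 higher and 1 lower of 20 (median 0.33), but 6 higher with the 10 lungs alone and 8 without bleomycin lungs 4 and 5. Pkm, pyruvate kinase, had 482 to 682 CPM against 366 to 485 (0.53 ± 0.10). Nuclear genes of oxidative phosphorylation gave 0 higher and 1 lower of 19, the lower being Cycs (−0.67 ± 0.21). Against untreated lungs 11 were higher after bleomycin and none lower (median 0.25). Genes of the mitochondrial genome fell in 6 of 7 (median −0.40), or 2 with the 10 lungs alone, and the share of reads from that genome was 0.926% to 1.11% in bleomycin and 0.786% to 1.91% in saline lungs. NRF2 antioxidant targets split, 9 higher and 5 lower of 17: Hmox1, haem oxygenase, rose (1.18 ± 0.18), and Gstm1 and Gsta3, glutathione transferases, fell (−1.08 ± 0.17 and −1.18 ± 0.22). Cholesterol and fatty acid synthesis gave 5 higher and 4 lower of 20, and the unfolded protein response 4 higher and 1 lower of 19, led by Edem1 (0.55 ± 0.12).

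Genes that respond to handling and to the hour of the day also differed. Immediate early and heat shock genes gave 1 higher and 6 lower of 15. Jun had 197 to 291 CPM against 334 to 407 (−0.69 ± 0.11), and Fos 173, 214, 88.2, 112.8 and 145.3 against 352, 121.2, 229.6, 302 and 454 (−0.99 ± 0.33). Without saline lung 5, 2 were higher and 1 lower. Circadian clock genes gave 7 higher and 3 lower of 16: the activators Arntl and Npas2 fell (−0.91 ± 0.14 and −1.36 ± 0.23), while Dbp (1.58 ± 0.38), Per2 (1.09 ± 0.27) and Per3 (0.90 ± 0.17) rose. Arntl had 18.6, 23, 19.6, 17.1 and 17.9 CPM against 44.7, 31.1, 32.6, 39 and 32.8. In Arntl, Npas2, Dbp, Per2 and Per3 the groups did not overlap. The hour of sampling is not in the labels, and its part in other differences was not tested.

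Among imprinted and fetal growth genes H19 (1.97 ± 0.48), Mest (1.5 ± 0.27) and Grb10 (0.72 ± 0.13) rose, and 7 of 11 fell. Without saline lung 5, 5 fell, and the list's median went from −0.47 to 0.21. The falls of Dlk1 and Meg3 rested on that lung. Dlk1, a Notch-like growth regulator, had 180.2 CPM there (2683 reads) and 0 to 0.483 in the other saline lungs, against 0.106 to 0.357 in bleomycin lungs. Meg3, an imprinted long RNA of the same locus, had 447 against 20.4 to 27.3. The differences of −7.4 and −1.98 became 0.70 and 0.22 without that lung, and neither was called.

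To see how the old day 28 response stood against its neighbours, the bleomycin effect (bleomycin minus saline, log2) was set against that in young lungs at day 28 and in old lungs at days 21 and 35. None of these comparisons shares a library with the old day 28 comparison. Called genes numbered 7295 here, 5371 in young lungs at day 28 (29.2%), 7815 in old lungs at day 21 (42.5%) and 5443 at day 35 (29.6%). Interstitial matrix genes rose in 29, 25, 30 and 26 of 32, with medians of 1.68, 1.01, 1.86 and 1.19. Basement membrane genes rose in 20, 13, 20 and 9 of 21, cell cycle genes in 13, 6, 20 and 14 of 22, and transitional epithelial genes in 17, 16, 17 and 17 of 20. Monocyte-derived macrophage genes rose in 16, 16, 18 and 17 of 20, and heart muscle genes fell in 12, 11, 11 and 2 of 12. B cell genes fell in 11, 11, 8 and 0 of 15. Over all genes tested 20.0%, 14.7%, 21.1% and 16.2% were called higher and 19.7%, 14.5%, 21.4% and 13.4% lower.

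**Figure D5:**
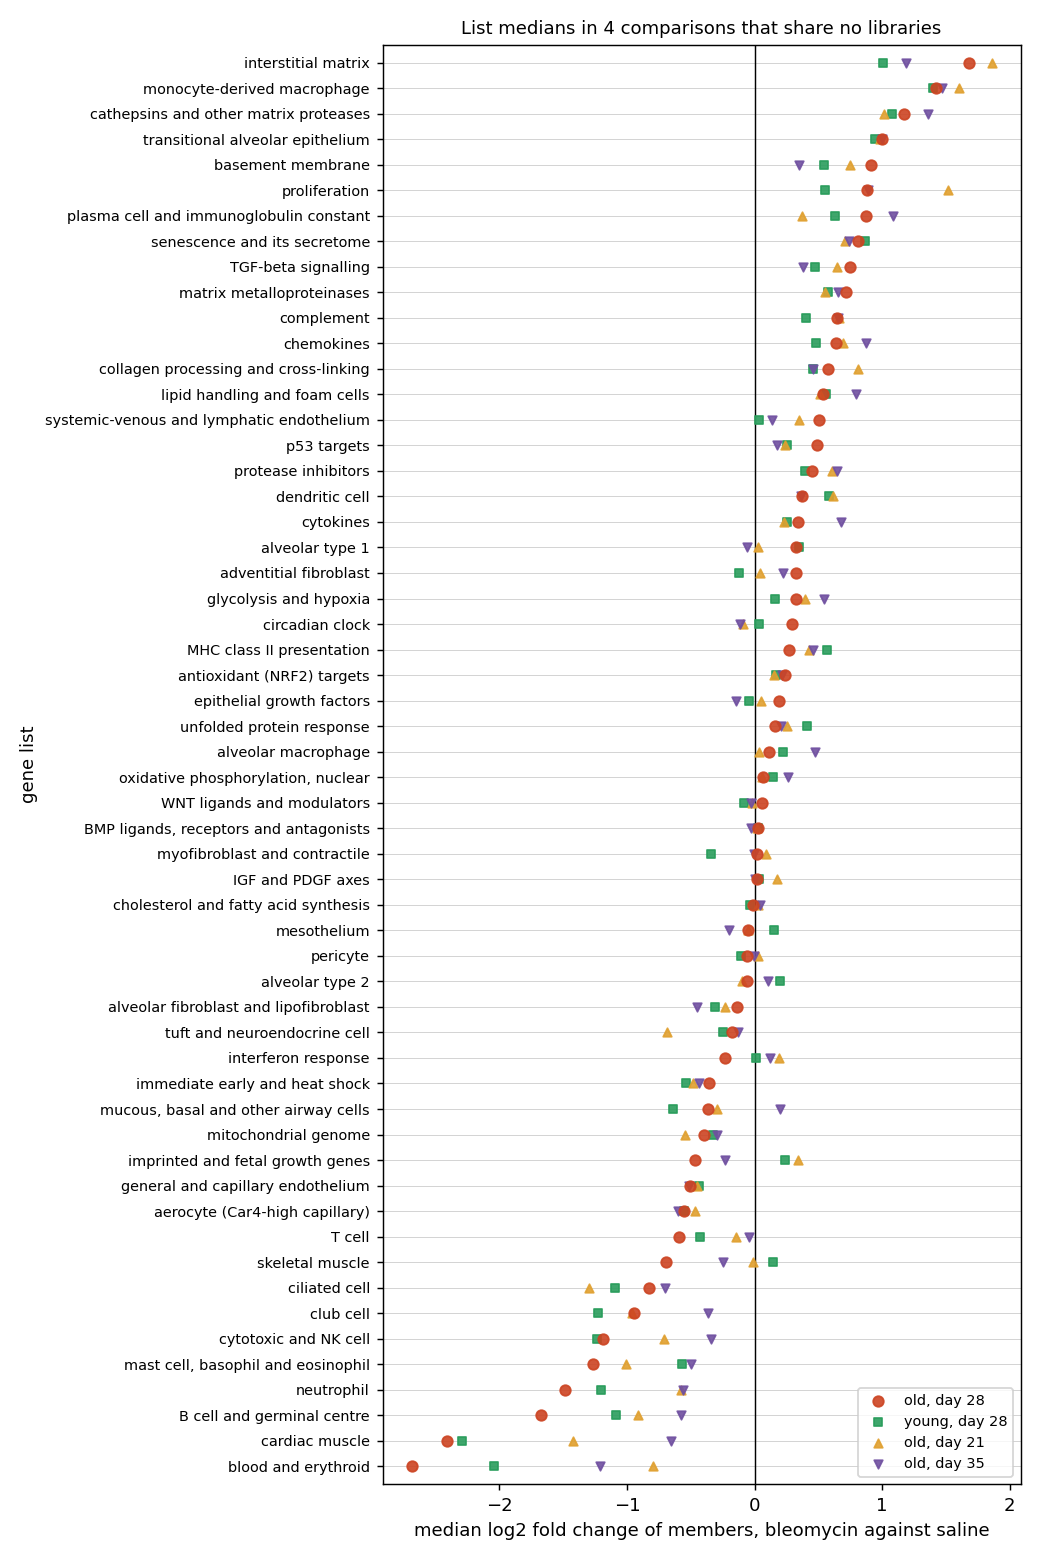
Median log2 fold change (bleomycin against saline) of the members of each list in old lungs at day 28, young lungs at day 28, and old lungs at days 21 and 35, which share no libraries. The interstitial matrix median is 1.68 in old lungs at day 28 and 1.01 in young lungs, and the heart muscle median runs from −2.41 at old day 28 to −0.66 at old day 35.

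In the contrasts between ages or days, the only list members called were Dlk1 and Meg3, of the imprinted and fetal growth genes. The effect in old minus young lungs at day 28 was called for 1 gene of 18396 (0.00544%), Dlk1 (−10.31 ± 2.02), with 1843 genes at an unadjusted p under 0.05. Col1a1 differed between the ages by 0.80 ± 0.43 (adjusted p = 0.523), Mmp12 by −2.02 ± 0.66 (adjusted p = 0.312) and Cdkn1a by 0.36 ± 0.20 (adjusted p = 0.541), all in the edgeR quasi-likelihood test. A miss of the threshold does not show that the ages responded alike. Without old bleomycin lung 4, 75 genes were called, without young bleomycin lung 3, 61, and without saline lung 5, none (saline lungs 1 to 4 left out in turn gave 4, 5, 2 and 2, and no other lung left out gave more than 1). Day 28 minus day 21 in old lungs was called for 3 genes (0.0163%), Dlk1 (−9.83 ± 1.70), Meg3 (−2.32 ± 0.47) and Abhd4, a lipid hydrolase gene (0.45 ± 0.09, adjusted p = 0.0167), and for none without saline lung 5 (1 without bleomycin lung 3 and 5 without bleomycin lung 4). Abhd4 had 119.2, 118.4, 117.7, 117.98 and 122.4 CPM after bleomycin and 85.3, 69.9, 74.3, 82.8 and 78.8 after saline at day 28 (0.61 ± 0.07), and its effect at day 21 was 0.15 ± 0.06. Day 35 minus day 28 was called for 2 genes (0.0109%), Dlk1 (10.04 ± 1.98) and Serinc5 (−0.47 ± 0.10, adjusted p = 0.0446), and for 46 without bleomycin lung 4, 38 without day 35 bleomycin lung 3, 22 without saline lung 4, 6 without saline lung 1 and none without saline lung 5, day 35 bleomycin lung 1 or day 35 bleomycin lung 4. Serinc5, a membrane protein gene, had 136.1, 125.2, 150.7, 100.97 and 125.6 CPM against 89, 72.4, 84.6, 89.6 and 73.9 at day 28 (0.64 ± 0.07) and an effect of 0.18 ± 0.07 at day 35.

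The saline controls themselves were set against the 5 untreated old lungs, to see how far they stood from lungs given nothing. Here 2969 genes were called (16.1%), 1127 higher (6.13%) and 1842 lower after saline. Most of this rested on 1 lung: without saline lung 5 the share was 0.789%, without saline lung 2 9.54% and without saline lung 4 24.6%, while without untreated lungs 3 and 4 it was 7.45% and 9.35%. With these 10 lungs alone it was 0.122%. Of the panel, Col1a1 had 287 to 455 CPM in saline and 344 to 383 in untreated lungs, Spp1 187 to 255 and 162 to 245, and Car4 136.9 to 212 and 135.9 to 166. Members of some lists were called: saline lungs were higher than untreated ones in 12 of 22 interferon-stimulated genes, 6 of 9 MHC class II genes, 6 of 14 neutrophil genes and 5 of 19 nuclear genes of oxidative phosphorylation. They were lower in 7 of 21 basement membrane genes and 6 of 17 epithelial growth factor genes. These counts are with all 10 lungs. Bleomycin against untreated lungs gave 8607 called genes (46.8%), and in Col1a1, Spp1 and Car4 every bleomycin lung lay outside the untreated range.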

How the data were processed

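Whole lungs were measured by poly-A RNA sequencing, and the authors deposited raw read counts per gene (48794 Ensembl genes, 14908959 to 31019168 counts a library), per the file headers. The submitters' processing notes name bcl2fastq 2.20.0.422, FastQC 0.11.5, STAR 2.5.2b, featureCounts 1.5.1 and RSEM 1.3.0, without roles, and the builds GRCm38 (mouse), GRCh38 and hg38 (both human), without saying which was used; the gene IDs in the table are mouse ones. The counting strand and the annotation release are not given in the sources used here. Groups were read from sample titles, and the labels do not say more of the replicates than that they are separate samples, so p-values measure the spread between these samples.

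Counts were fitted in R 4.3.3 with edgeR 4.0.16 (TMM scaling, filterByExpr with a minimum count of 10 and a total of 15, robust quasi-likelihood F test) over all libraries of the series with 26 group terms, leaving 18396 genes. A gene was called at a Benjamini-Hochberg adjusted p under 0.05 over all genes tested. The SE was taken as the size of the log2 fold change over the root of its F value, CPM values used TMM-scaled totals, and log2 CPM used a prior count of 2. Differences between ages and days were contrasts of the same fit. The test of bleomycin against saline at old day 28 was checked on simulated counts. These had the same spread for every gene and no lung that stood apart, and the other contrasts were not checked in this way. Alternatives were RLE scaling, no filter, DESeq2 1.42.0, the groups alone, leaving out each lung in turn of the groups with 5 lungs or fewer, and leaving out libraries that are numbered apart or stand apart.

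Named genes were a fixed panel, the 12 largest rises and falls, up to 4 members of each of 56 lists by smallest p, the 8 largest called differences each way in the contrasts between ages and days, 10 genes with the largest spread among bleomycin lungs and 8 non-coding genes. Other list members are named to show what a count holds and were chosen after their values were seen. The lungs, the panel and the lists were chosen with earlier results of these data known. Promoters came from a RefSeq table (GRCm38.p6). Genes with immunoglobulin or haemoglobin copies, and overlapping genes, may share reads.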

Additional observations from a re-analysis of the deposited data

Results flagged for a closer look

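A gene or list score was held to stand apart when the highest or lowest of the 5 lungs of a group lay farther from the rest than Dixon's criterion for 5 values (0.71) allows. This was met in 38 of 216 tests, and most of these were bleomycin lung 4 or saline lung 5. The criterion's nominal rate of 1 in 20 is no measure for this count. The tests reuse the same lungs, the lists share members, and some genes were chosen from these same values. Genes were tested on log2 CPM and are shown in CPM. The values are given without an explanation.

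Bleomycin lung 4 stood apart in 12 genes and 5 lists. It was the lowest bleomycin lung in genes of matrix and matrix-producing cells: Col1a1 had 515 against 1569 to 2146 CPM in the other 4, Fn1 897 against 3422 to 5175, Eln 899 against 2334 to 3257 and Tnc 108.05 against 349 to 545. Grem1 had 6.65 against 40.2 to 65.3, Cemip 3.63 against 20.7 to 30.6 and P4ha3 3.56 against 17.4 to 24.1 CPM. It was also lowest in the proliferation gene Mki67 (14.1 against 24.5 to 29) and in Marco (13.7 against 32.2 to 36.7). It was the highest bleomycin lung in Scgb1a1 (21203 against 8683 to 10363), Cd5l (39.6 against 7.09 to 10.8) and Slc5a12 (0.669 against 0.102 to 0.167). Among list scores (mean log2 CPM of the members) it was lowest in TGF-beta signalling (6.2 against 6.69 to 6.89) and lipid handling (7.58 against 7.77 to 7.82). It was highest in cytotoxic and NK cells (2.69 against 0.75 to 1.3), ciliated cells (4.94 against 3.8 to 4.02) and aerocytes (6.97 against 6.69 to 6.74).

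Saline lung 5 stood apart in 8 genes and 8 lists. It was the highest saline lung in Dlk1 (180.2 against 0 to 0.483 CPM), Meg3 (447 against 20.4 to 27.3), Trem2 (18.7 against 7.65 to 9.79) and Cthrc1 (12.5 against 5.01 to 6.4). The same held for Cdkn2a (2.42 against 1.37 to 1.55), Fabp1 (17.7 against 3.9 to 5.36) and Acaa1b (21 against 7.71 to 10.2), while Kdr was lowest there (259.9 against 442 to 519.9). Its scores were highest for alveolar macrophages (5.94 against 4.88 to 5.17), chemokines (3.78 against 3.32 to 3.45), transitional epithelium (5.49 against 4.61 to 4.84) and lipid handling (7.5 against 6.98 to 7.09). They were also highest for glycolysis (5.28 against 4.98 to 5.03), the unfolded protein response (7.04 against 6.71 to 6.8) and imprinted genes (4.8 against 3.65 to 3.89), and lowest for clock genes (4.98 against 5.19 to 5.27).

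The other 4 saline lungs stood apart in 5 further measures. Saline lung 1 was lowest in Jchain (32.2 against 114.96 to 140.96 CPM) and in the B cell score (1.9 against 4.11 to 4.67). Saline lung 2 was lowest in the mitochondrial genome score (9.05 against 9.92 to 10.24), saline lung 3 highest in the capillary endothelium score (8.47 against 8.19 to 8.25), and saline lung 4 highest in Chl1 (2.53 against 0.285 to 0.443 CPM).

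In 6 direct tests the bleomycin effect at old day 28 differed from that of another age or day (edgeR quasi-likelihood test, adjusted p under 0.05). Dlk1 differed by −10.31 from young day 28, by −9.83 from old day 21 and, as day 35 minus day 28, by 10.04, all on the log2 scale. Meg3 differed by −2.32 from old day 21. Abhd4 differed by 0.45 from old day 21 and Serinc5, as day 35 minus day 28, by −0.47. No gene was called in any of these 3 contrasts when saline lung 5 was left out.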

How the results depend on the processing

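No paired analysis was possible because no replicate number in the labels links lungs of different groups. For bleomycin against saline at old day 28 the 7295 calls went to 4508 with the 10 lungs fitted alone and to 6388 to 7990 with 1 lung left out. RLE scaling, no filter, DESeq2, untreated controls and leaving out bleomycin lungs 4 and 5, or 5 libraries of the series that stand apart (saline lung 5 among them), each stayed within 1.5 times. Of 265 genes named by rule 248 were called, and 210 of these under every alternative but the untreated controls. With old untreated lungs as control, an alternative chosen after seeing the data, Camp reversed to 0.91, Dlk1 to 3.15 and Meg3 to 0.47. Leaving out 1 lung at a time took Dlk1 from −7.72 to 0.70 and Meg3 from −2.23 to 0.22, both reversed only without saline lung 5, and leaving out the 5 libraries took them to 0.73 and 0.25.

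The old minus young difference (1 gene) became 0 with no filter, 10 without bleomycin lungs 4 and 5, 97 without the 5 libraries, 0 with the groups alone, 8 with DESeq2 and 0 to 75 with 1 lung left out. Day 28 minus day 21 (3 genes) became 0 without the 5 libraries, 0 with the groups alone and 0 to 5 with 1 day 28 lung left out (no day 21 lung was). Day 35 minus day 28 (2 genes) became 1 with RLE scaling, 0 with no filter, 89 without bleomycin lungs 4 and 5, 47 without the 5 libraries, 0 with the groups alone, 10 with DESeq2, which gave 15336 genes no adjusted p, and 0 to 46 with 1 day 28 lung or day 35 bleomycin lung left out (no day 35 saline lung was). Saline against untreated (16.1% of genes tested) became 5.18% with no filter, 3.49% without the 5 libraries, 0.122% with the groups alone and 0.789% to 24.6% with 1 lung left out. The cause of each change was not tested. Depth limits scarce genes such as Mmp10, with 0 to 3 reads in saline lungs.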

Other observations

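Of called genes whose log2 CPM averaged above 3, 10 were taken for the largest spread among the bleomycin lungs, and 4 of them are described here. Ighv6-3, an immunoglobulin variable segment, had 2.02, 2.96, 46.4, 1.65 and 386 CPM in bleomycin lungs 1 to 5, so that single lungs held nearly all of it, against 1.14, 8.11, 2.73, 2.9 and 2.42 in saline lungs. Car3, a carbonic anhydrase of fat and muscle, had 8.93, 0.724, 3.28, 2.53 and 9.69 CPM against 10.7, 28.3, 56.6, 23.9 and 23 (−2.51 ± 0.87). Cfd, adipsin, made by fat cells, had 11.1, 1.25, 4.39, 4.4 and 15.3 against 14.7, 47.3, 61.4, 18.8 and 43.4 (−2.35 ± 0.80). Both genes overlapped between groups, and how much fat a piece of lung held was not tested. Slfn4, an interferon-responsive gene of myeloid cells, had 6.01, 8.76, 10.8, 54 and 7.14 CPM against 68.1, 29.8, 48.7, 61.3 and 99.7 (−1.78 ± 0.56).

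Several long non-coding RNA genes without a known role were taken among called genes whose groups did not overlap. Among the rises, Gm7932 had 4.35, 5.99, 4.11, 2.46 and 3.42 CPM against 1.54, 1.06, 1.04, 0.905 and 1.14 (1.82 ± 0.29), and A930001C03Rik, C130013H08Rik and Gm10575 differed by 1.11 ± 0.20, 0.55 ± 0.19 and 0.49 ± 0.16. Among the falls, Gm14964 had 2.5, 2.7, 4.78, 7.08 and 4.23 CPM against 16.5, 20.4, 23.4, 17.3 and 23 (−2.21 ± 0.30), and Gm830, Gm33248 and Gm45767 differed by −1.57 ± 0.30, −1.49 ± 0.26 and −1.47 ± 0.24. Because the strand setting of the counting is not given in the sources used here, reads of such genes and of overlapping genes cannot be told apart.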
